A study of Mus musculus with 33 samples.

Results

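The 10 genes described here encode receptors, bridging molecules and an adaptor of efferocytosis, the uptake of dying cells by phagocytes. They were chosen by gene symbol, as known members of this machinery, with earlier results of these data known. They are 10 of the 24421 genes listed for each of 33 bulk RNA-seq samples. Each sample held 25000 macrophages (macs) sorted from C57Bl/6 mice of 6 to 8 weeks of age. Kupffer cells (KCs), the macs of the liver sinusoids, were sorted as CRE- KCs from Zeb2 fl/fl mice (n = 6), and as Tim4+ KCs (n = 6) and Tim4- KCs (n = 6) from Clec4f-crexZeb2fl/fl mice. Alveolar macs (AMs), the macs of the lung airspace, were sorted as CRE- AMs from Zeb2 fl/fl mice (n = 5), and as CD11b- AMs (n = 5) and CD11b+ AMs (n = 5) from Itgax-crexZeb2fl/fl mice.

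All groups carry loxP-flanked Zeb2 alleles, so the controls differ from the CRE+ mice in lacking the recombinase. Clec4f-cre acts in KCs and, per the study, in a minor fraction of B cells, and Itgax-cre also acts in other CD11c-expressing cells. Per the study the deleted allele still gives a shortened transcript, so Zeb2 counts are no full check of the deletion, and it describes the CRE+ macs as a mixture in which some cells keep a copy of Zeb2. Zeb2, which encodes a zinc-finger transcription factor, was at 282 ± 37.6 CPM (SD, n = 6) in CRE- KCs, and lower with CRE, at 174 ± 25.9 for Tim4+ and 169 ± 15.4 for Tim4- KCs. In AMs it was at 195 ± 17.1 CPM (SD, n = 5) without CRE, 105 ± 11.8 in CD11b- AMs and 62.5 ± 7.79 in CD11b+ AMs. CPM, the usual depth-normalized unit, here relate a count to the sample total on genes, scaled by TMM factors over the 33 samples. The total count on genes ran from 9837240 to 24332306 (median 20683608), and was lowest in replicate 1 of Tim4- KCs.

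A dying cell exposes phosphatidylserine on its surface as an eat-me signal. Tim4, encoded by Timd4, and Tim3, encoded by Havcr2, bind this lipid directly. The receptor tyrosine kinases Tyro3, Axl and Mertk (the TAM receptors) bind it through the bridging proteins Gas6 and protein S (Pros1), and integrins bind it through Mfge8, also called lactadherin. Lrp1 is a large endocytic receptor that takes up calreticulin-bearing cells, and Elmo1 is an adaptor that, with a Dock protein, activates Rac to close the phagocytic cup. KCs and AMs both clear large numbers of dying cells, KCs from the blood and AMs from the airways.

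The plot of levels by sample gives each gene on its own log2 scale. In bulk samples such as these, fewer cells that express a gene and less RNA per cell cannot be told apart. The labels do not say whether replicates came from separate mice, so the p-values measure the spread between these samples.

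**Figure D1:**
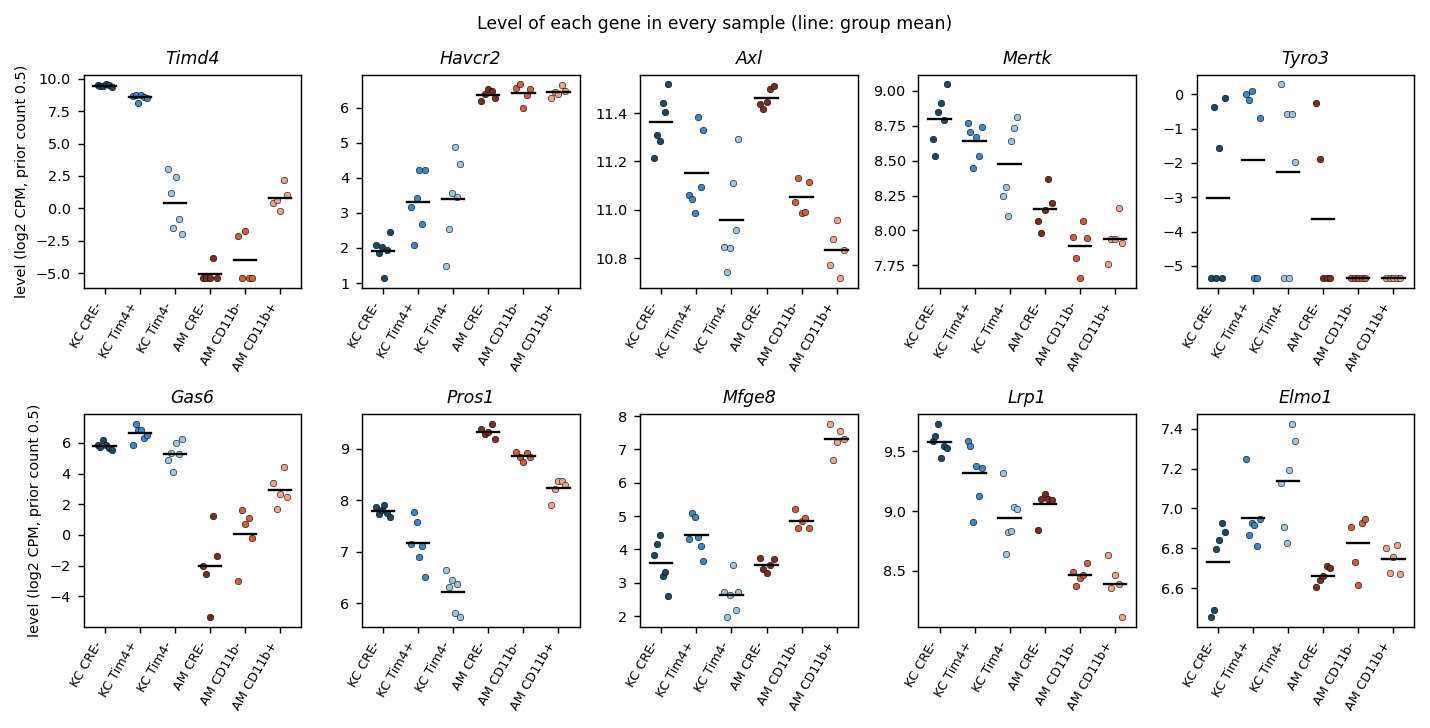
Level of each of the 10 genes (log2 CPM with a prior count of 0.5, vertical axis, a separate scale per panel) in each of the 33 samples, by group. Points are samples and lines are group means. Timd4 spans the widest range, from 0.00963 CPM on average in CRE- AMs to 708 CPM in CRE- KCs, whereas Elmo1 stays between 87.6 and 172 CPM in all samples, and Tyro3 lies at the bottom of its panel in all CRE+ AMs, where it had no count.

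Levels can be compared between genes only per length. Per kilobase of annotated exon, Axl was the most abundant of the 10 genes in both control groups, with 524 ± 41.0 CPM per kb (SD, n = 6) in CRE- KCs and 561 ± 16.1 CPM per kb (SD, n = 5) in CRE- AMs. In CRE- KCs it was followed by Timd4 at 326 ± 14.7, Mertk at 103 ± 13.1, Pros1 at 54.5 ± 3.24 and Lrp1 at 43.2 ± 2.98 CPM per kb. In CRE- AMs the order was Pros1 at 158 ± 12.2, Mertk at 65.8 ± 6.81, Havcr2 at 30.5 ± 2.90 and Lrp1 at 30.1 ± 2.41 CPM per kb. The last 2 values differ by less than their SD. Gas6 stood at 21.96 ± 3.48 CPM per kb in CRE- KCs and at 0.242 ± 0.385 in CRE- AMs. Thus the more abundant TAM ligand transcript per length was Pros1 in both controls.

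**Figure D2:**
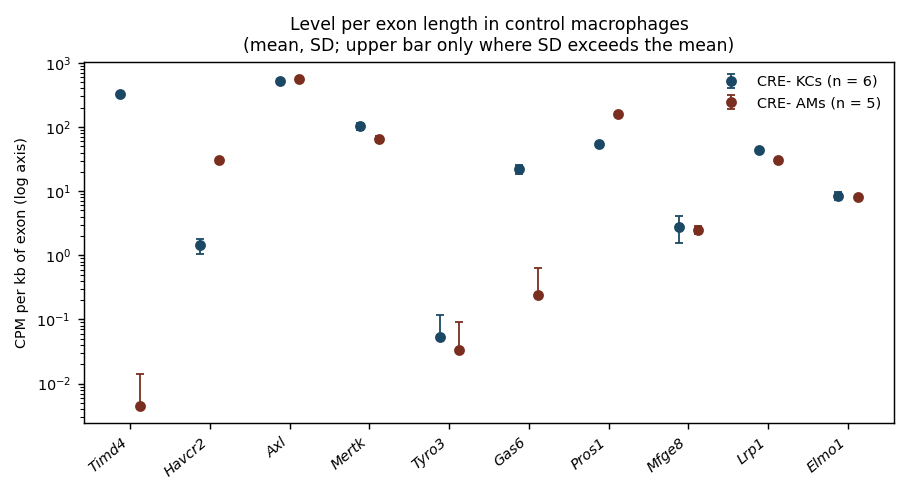
Mean level per exon length (CPM per kb, log axis) of the 10 genes in CRE- KCs (blue, n = 6) and CRE- AMs (red, n = 5), with SD bars, drawn upward only where the SD exceeds the mean. Axl is highest in both groups, at 524 and 561 CPM per kb, Timd4 and Gas6 are far apart between the tissues, and Tyro3 is lowest among the genes in CRE- KCs.

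The first comparison asked how the machinery differs between the liver and the lung without CRE. Of 9 members tested, 4 were higher in CRE- KCs than in CRE- AMs (Timd4, Gas6, Mertk and Lrp1), 2 were lower (Havcr2 and Pros1) and 3 did not pass the test (Axl, Mfge8 and Elmo1). Tyro3 was below the filter on low counts, and Timd4 and Gas6 passed it only through the CRE- KC samples, so they had to differ. Over all 12145 genes tested, 33.3% were higher and 29.9% lower by edgeR's quasi-likelihood test at an adjusted p (Benjamini-Hochberg) under 0.05, so most genes in this comparison differ and the members' count stands near that share. The median log2 fold change was 0.20 for the members and 0.03 for all genes.

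Timd4, on chromosome 11 from 46810800 to 46844332 of GRCm38, ranged from 664 to 759 CPM in CRE- KCs with a median of 708. In CRE- AMs 4 of the 5 samples had no count and 1 had 1 count. Summed, these were 90041 counts against 1, a ratio of 74750 per counted read (95% exact interval of counting error 13416 to 2952480). Gas6, on chromosome 8 from 13465374 to 13494490, ranged from 45.7 to 71.3 CPM in CRE- KCs with a median of 55.4. The CRE- AM samples had 0.224, 0.147, 0, 2.36 and 0.358 CPM. No sample of either group came near the other, and the log2 fold change was 6.53 (SE 0.55, adjusted p = 9.49e-08), or 8.26 without replicate 4 of CRE- AMs, the sample at 2.36 CPM. As Gas6 was tested here only because of its CRE- KC samples, its p-value and the gap between the groups are a description.

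For the receptors Mertk and Lrp1 the tissue difference was smaller. Mertk, on chromosome 2 from 128698956 to 128802894, ranged from 370.3 to 529.5 CPM in CRE- KCs (median 451.5) and was at 268, 253, 283, 331 and 293 CPM in CRE- AMs. The groups did not overlap, and the log2 difference was 0.68 (SE 0.09, adjusted p = 1.74e-05). Lrp1, on chromosome 10 from 127538161 to 127621148, was higher by 0.55 on the log2 scale (SE 0.07, adjusted p = 6.86e-06), again without overlap.

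In the opposite direction, Havcr2 was more than an order of magnitude lower in KCs. This gene, on chromosome 11 from 46454935 to 46481255, ranged from 2.19 to 5.48 CPM in CRE- KCs (median 3.92) and was at 73.0, 83.1, 92.6, 88.3 and 77.7 CPM in CRE- AMs, a log2 difference of -4.38 (SE 0.17, adjusted p = 1.77e-11). Pros1, on chromosome 16 from 62854307 to 62929346, ranged from 205 to 239 CPM in CRE- KCs (median 222) and was at 664, 624, 638, 719 and 586 CPM in CRE- AMs, a log2 difference of -1.51 (SE 0.06, adjusted p = 5.21e-11). Among the members that bind phosphatidylserine directly, Timd4 was thus higher in KCs and Havcr2 in AMs, and other receptors of this lipid are given below. The tissues also stood apart in the share of each TAM ligand. Timd4 and Gas6 had to differ, as they passed the filter only through the CRE- KC samples.

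The 3 genes that did not pass had overlapping groups. Axl, on chromosome 7 from 25757273 to 25788705, differed by -0.07 (SE 0.06, adjusted p = 0.330), with a 95% interval of the log2 difference from -0.19 to 0.05. Mfge8, on chromosome 7 from 79133768 to 79149060, differed by 0.20 (SE 0.27, adjusted p = 0.544, interval -0.34 to 0.74). Elmo1, on chromosome 13 from 20090596 to 20608353, differed by 0.11 (SE 0.09, adjusted p = 0.316, interval -0.07 to 0.29).

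The second set of comparisons asked how the members differ in KCs with CRE. The comparisons within a tissue share samples, so their values are given side by side. The CRE+ KCs were sorted on Tim4, so Timd4 is given there as a description and was not tested. It ranged from 281 to 438 CPM in Tim4+ KCs (median 391), below all CRE- KC samples, and from 0.229 to 8.19 CPM in Tim4- KCs (median 1.37). The Tim4+ gate thus held cells with a mean of 381 ± 54.9 CPM (SD, n = 6), against 708 ± 31.9 in CRE- KCs, for which the sources used here do not say whether Tim4 was part of the gate.

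In Tim4+ KCs, 1 of 9 members tested was higher than in CRE- KCs (Havcr2) and 1 was lower (Pros1), beside 3.63% higher and 2.46% lower among all 12500 genes tested. Havcr2 ranged from 4.25 to 18.5 CPM in Tim4+ KCs (median 9.82), so its lowest sample lay within the CRE- range of 2.19 to 5.48, and it rose by 1.51 on the log2 scale (SE 0.44, adjusted p = 0.0463). Pros1 ranged from 91.6 to 219 CPM (median 141), overlapping the CRE- range at its upper end, and fell by 0.59 (SE 0.17, adjusted p = 0.0439). Both calls lie close to the threshold. That of Havcr2 was lost without any 1 of the 6 CRE- KC samples, of replicates 1, 3, 4 and 6 of Tim4+ KCs or of replicates 3 and 5 of Tim4- KCs (adjusted p from 0.0514 to 0.117). That of Pros1 was lost without any 1 of the 6 CRE- KC samples, of replicates 1, 4, 5 and 6 of Tim4+ KCs or of replicates 2 and 5 of Tim4- KCs (adjusted p from 0.0503 to 0.124).

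Of the other members, Gas6 ranged from 58.7 to 153 CPM in Tim4+ KCs (median 103), and its log2 fold change of 0.85 (SE 0.27) had an adjusted p of 0.0653. It passed with DESeq2 (adjusted p = 0.0422) and in an edgeR fit of these 2 groups alone (adjusted p = 0.00836). It also passed without replicate 1 of Tim4+ KCs (0.98, adjusted p = 0.030), without replicate 3 of Tim4- KCs (0.85, adjusted p = 0.0225) and without replicate 6 of Tim4- KCs (0.85, adjusted p = 0.0380). Axl (-0.23, SE 0.09, adjusted p = 0.197), Lrp1 (-0.26, SE 0.11, adjusted p = 0.235), Mertk (-0.18, SE 0.11, adjusted p = 0.478), Mfge8 (0.77, SE 0.30, adjusted p = 0.170), Elmo1 (0.20, SE 0.11, adjusted p = 0.401) and Tyro3 (0.78, SE 1.17, adjusted p = 0.817) did not pass.

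In Tim4- KCs, 2 of 9 members rose against CRE- KCs (Havcr2 and Elmo1) and 5 fell (Pros1, Mfge8, Lrp1, Axl and Mertk), whereas 12.2% of all genes tested were higher and 13.2% lower. The members' median log2 fold change was -0.36, beside -0.03 for all genes. Pros1 and Lrp1 were the only members tested whose 2 groups did not overlap. Gas6 (-0.36, SE 0.27, adjusted p = 0.352) and Tyro3 (0.39, SE 1.20, adjusted p = 0.847) did not pass.

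Among the bridging molecules, Pros1 ranged from 53.2 to 100.1 CPM in Tim4- KCs (median 81.6), under the lowest CRE- sample at 205, and fell by 1.55 on the log2 scale (SE 0.18, adjusted p = 1.52e-06). Mfge8 ranged from 3.90 to 11.5 CPM (median 6.39) against 5.997 to 21.4 in CRE- KCs (median 12.2) and fell by 1.02 (SE 0.31, adjusted p = 0.0189). Its call was lost without replicate 3 of CRE- KCs, the sample with most Mfge8 (-0.83, adjusted p = 0.0593), and the 3 lowest CRE- samples lay within the Tim4- range.

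Among the receptors, Lrp1 ranged from 400.0 to 640.0 CPM in Tim4- KCs (median 486) against 696 to 851 in CRE- KCs (median 757) and fell by 0.63 (SE 0.11, adjusted p = 0.000347). Axl ranged from 1714 to 2509 CPM (median 1888) against 2379 to 2935 (median 2626) and fell by 0.41 (SE 0.09, adjusted p = 0.00278). Mertk fell by 0.32 (SE 0.11, adjusted p = 0.0432), from a range of 370.3 to 529.5 CPM in CRE- KCs to 275.5 to 450.3 CPM (median 358). The Mertk call was lost without any 1 of replicates 3, 4, 5 and 6 of CRE- KCs, 1, 2 and 3 of Tim4- KCs or 1, 2, 4, 5 and 6 of Tim4+ KCs (adjusted p from 0.0514 to 0.105).

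Havcr2 was the member with the largest increase in Tim4- KCs, by 1.79 on the log2 scale (SE 0.45, adjusted p = 0.00546). Its samples were widely spread, from 2.80 to 29.1 CPM (median 11.4), and replicate 1 lay within the CRE- range. Even its highest KC sample stayed under the lowest AM sample, at 63.7 CPM. Elmo1 ranged from 114 to 172 CPM in Tim4- KCs (median 143) against 87.6 to 122 (median 113) and rose by 0.39 (SE 0.11, adjusted p = 0.0133). Its exons overlap those of Gm32036, an antisense gene not analysed here, and the strand setting of the counting is not given in the sources used here, so reads of the pair may not be told apart.

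Between the 2 CRE+ fractions, 4 of 9 members were lower in Tim4- KCs than in Tim4+ KCs (Mfge8, Gas6, Pros1 and Lrp1) and none was higher, beside 7.62% lower and 3.84% higher among all genes. All 3 bridging molecules were thus lower. Mfge8 did not overlap, with 12.5 to 34.2 CPM in Tim4+ KCs (median 20.4) against 3.90 to 11.5, a log2 difference of -1.79 (SE 0.31, adjusted p = 0.000620). Gas6 differed by -1.20 (SE 0.27, adjusted p = 0.00470), with 17.2 to 76.5 CPM in Tim4- KCs (median 39.5), and Pros1 by -0.97 (SE 0.17, adjusted p = 0.000800). Lrp1 differed by -0.37 (SE 0.11, adjusted p = 0.0376), a call lost without any 1 of replicates 1, 2, 4 and 6 of Tim4+ KCs or 2, 3 and 4 of Tim4- KCs (adjusted p from 0.0671 to 0.102). In this comparison samples with the same replicate number deviated together (r = 0.112 to 0.391), though the labels do not say that they were paired. With the replicate block Axl also passed (-0.19, adjusted p = 0.0261, against -0.18 and 0.227 without the block). Mertk (-0.15, adjusted p = 0.461), Havcr2 (0.28, adjusted p = 0.738), Elmo1 (0.20, adjusted p = 0.289) and Tyro3 (-0.39, adjusted p = 0.875) did not pass.

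Markers of another cell type were lower in Tim4- KCs as well. The summed level of 9 liver endothelial cell markers, which include Stab2, Kdr and Clec4g, was 649 to 1933 CPM in CRE- KCs (median 1239), 1113 to 3168 in Tim4+ KCs (median 1411) and 364 to 528 in Tim4- KCs (median 448). All 9 were lower in Tim4- KCs than in CRE- KCs by the same test, 8 of 9 were lower than in Tim4+ KCs, and none was at 3 counts or fewer in every sample of a KC group. In Tim4+ against CRE- KCs the 9 markers had a median log2 fold change of 0.65, and none passed. There Pros1 was at -0.59 and Lrp1, which did not pass, at -0.26. Within CRE- KCs, replicate 3 had the highest and replicate 6 the lowest value of both Mfge8 and the marker sum. Within Tim4+ KCs, replicate 2 had the highest value of both, but the lowest lay in replicate 6 for Mfge8 and in replicate 5 for the sum. Within Tim4- KCs, where the sum spanned 364 to 528 CPM, replicate 2 had the highest sum and the lowest Mfge8 (3.90 CPM). Mfge8 was highest there in replicate 4. Gas6 was highest in replicate 3 and lowest in replicate 6 of CRE- KCs, as was the sum. In Tim4+ KCs Gas6 was highest in replicate 2, like the sum, but lowest in replicate 1. In Tim4- KCs Gas6 was highest in replicate 6, where the sum was lowest. Pros1 was highest in replicates 4, 2 and 1 of CRE-, Tim4+ and Tim4- KCs, and lowest in replicate 6 of each. The part of endothelial RNA in the levels of Mfge8, Gas6, Pros1 and Lrp1 was not tested. Across all 18 KC samples, which include the group differences, the 2 genes most like Mfge8 in log2 CPM were Afap1l1 (Pearson r = 0.957) and Dnase1l3 (r = 0.943).

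Other lists moved in KCs as well. The summed level of 7 monocyte markers was 104 to 346 CPM in CRE- KCs (median 236), 128 to 427 in Tim4+ KCs (median 268) and 409 to 1009 in Tim4- KCs (median 705), led by Plac8, Cx3cr1 and Ccr2. Of 6 tested, 3 were higher in Tim4- than in CRE- KCs and none was lower. In CRE-, Tim4+ and Tim4- KCs, Plac8 had means of 192, 131 and 313 CPM and F13a1 of 5.64, 5.28 and 2.59 CPM. Ly6c2 had means of at most 0.637 CPM. The part of monocyte RNA in the levels of Havcr2 and Elmo1 was not tested. The KC markers, with Clec4f and Cd5l the most abundant, had a median sum of 23773 CPM in CRE- KCs, 14132 in the Tim4+ and 11256 in the Tim4- fraction, and at most 96.7 CPM in any AM sample. Clec4f itself had means of 10892, 4700 and 3586 CPM in the KC groups. Per the study its 3' untranslated region holds the Cre insert in CRE+ mice, and the part of this insert in its level was not tested. Of these 7 markers, 6 were lower and 1 was higher in Tim4- than in CRE- KCs. Id3 went the other way, with means of 583, 683 and 888 CPM in CRE-, Tim4+ and Tim4- KCs. The summed level of 7 AM markers had medians of 60.4, 276 and 403 CPM in the 3 KC groups. Of these genes Siglecf, with means of 4.51, 168 and 290 CPM, and Itgax, with 7.38, 41.5 and 78.5 CPM, made up most of the increase, while Car4 and Krt79 stayed at means of at most 0.0896 CPM and Chil3 at 2.76 CPM or less. The sums of neutrophil and lung epithelial markers were at most 82.3 and 12.2 CPM in any KC sample. Replicates 5 and 6 of each KC group had Ddx3y, a Y-linked gene, at 64.6 to 75.4 CPM and no Xist count, whereas the other KC samples and all AM samples had at most 0.131 CPM of Ddx3y. With replicates 1 to 4 alone, the number of members past the test was 0 in Tim4+ KCs, and Elmo1 in Tim4- KCs (adjusted p = 0.0626) and Lrp1 between the fractions (adjusted p = 0.114) were no longer past it.

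**Figure D3:**
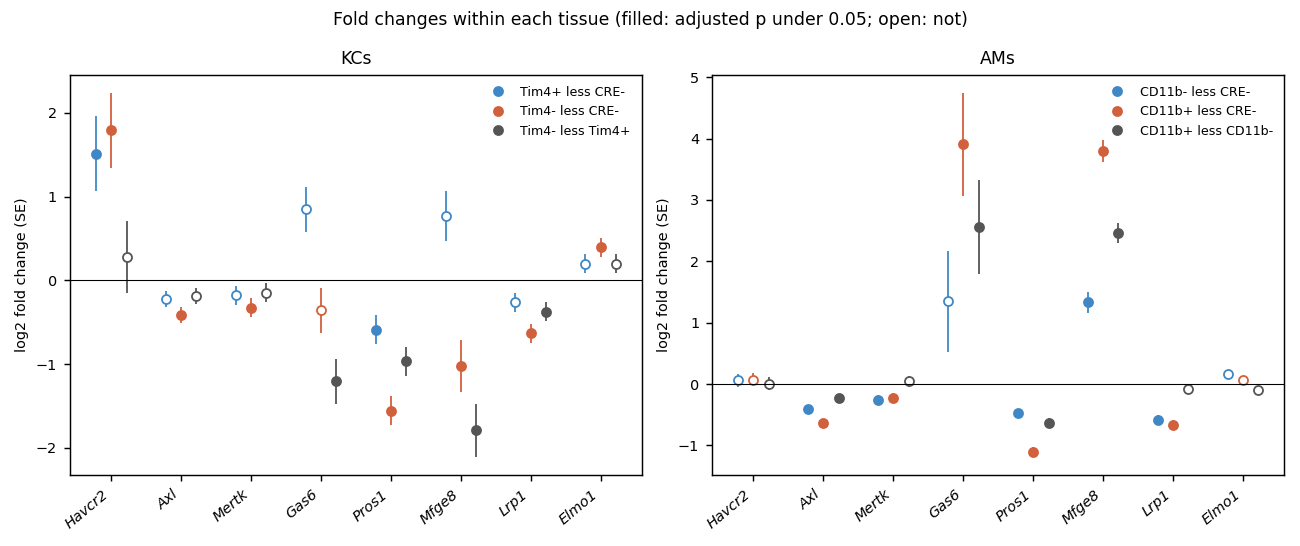
Log2 fold changes (vertical axis) with standard errors of 8 of the genes in the 3 comparisons within KCs (left) and the 3 within AMs (right). Filled points passed an adjusted p of 0.05 and open points did not. Timd4 and Tyro3 are left out because Timd4 encodes the sort marker in KCs and both are at or near 0 counts in AMs. Mfge8 lies at -1.02 in Tim4- KCs and at 3.79 in CD11b+ AMs, each against CRE- cells.

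The third set of comparisons asked the same of AMs. In CD11b- AMs, 1 of 9 members tested rose against CRE- AMs (Mfge8) and 4 fell (Lrp1, Pros1, Axl and Mertk), beside 13.3% higher and 12.4% lower among all 11573 genes tested. In CD11b+ AMs, 3 of 9 rose (Mfge8, Gas6 and Timd4) and the same 4 fell, beside 22.8% higher and 20.5% lower among all genes. Timd4 passed the filter on low counts only through the CD11b+ samples, so it had to be higher there, in this count and the next. Between the CRE+ fractions, 3 of 9 were higher in CD11b+ than in CD11b- AMs (Mfge8, Gas6 and Timd4) and 2 were lower (Pros1 and Axl), beside 19.8% higher and 16.6% lower. Tyro3 was below the filter in all 3 comparisons.

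Promoter sequences from RefSeq (GRCm38.p6) were found for all 10 genes. They are shown for Mfge8, Gas6 and Timd4, the 3 members that rose in CD11b+ AMs, and for Elmo1, the member with a match to the E-box CACCTG, which ZEB proteins bind. Each line gives the 250 bases before the transcription start on the gene's own strand, 5′ to 3′, and capitals mark a match to CACCTG on either strand (CAGGTG where it lies on the other). The windows are chr7:79149061-79149310 (minus strand) for Mfge8, chr8:13494536-13494785 (minus strand) for Gas6, chr11:46810549-46810798 (plus strand) for Timd4 and chr13:20090257-20090506 (plus strand) for the first of 2 Elmo1 starts.
Mfge8: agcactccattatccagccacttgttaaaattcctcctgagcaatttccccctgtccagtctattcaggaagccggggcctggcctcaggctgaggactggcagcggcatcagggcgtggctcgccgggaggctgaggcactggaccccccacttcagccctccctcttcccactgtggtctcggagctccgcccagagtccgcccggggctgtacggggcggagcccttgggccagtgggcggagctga
Gas6: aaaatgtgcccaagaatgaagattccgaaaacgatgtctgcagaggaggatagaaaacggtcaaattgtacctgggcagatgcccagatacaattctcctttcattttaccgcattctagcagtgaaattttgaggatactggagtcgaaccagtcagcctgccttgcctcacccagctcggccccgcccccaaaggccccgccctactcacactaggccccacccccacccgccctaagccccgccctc
Timd4: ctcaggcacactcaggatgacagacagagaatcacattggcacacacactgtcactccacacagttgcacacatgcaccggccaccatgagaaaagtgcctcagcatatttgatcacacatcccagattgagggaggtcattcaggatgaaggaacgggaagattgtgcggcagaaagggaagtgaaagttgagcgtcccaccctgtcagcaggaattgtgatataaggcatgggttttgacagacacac
Elmo1: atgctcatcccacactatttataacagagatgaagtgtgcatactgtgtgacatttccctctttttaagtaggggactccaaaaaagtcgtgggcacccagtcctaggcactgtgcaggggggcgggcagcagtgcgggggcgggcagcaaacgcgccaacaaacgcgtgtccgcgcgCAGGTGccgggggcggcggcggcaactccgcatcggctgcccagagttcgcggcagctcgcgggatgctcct
The match in Elmo1 starts 72 bases before the transcription start. CACCTG was searched on both strands from 250 bases before to 50 after each start, and was found for 1 of the 10 genes, against 22.6% of all 27025 genes in the table. A pair of AGGTCA sites in the same direction with 4 bases between them, the element known for LXR, was found in none of the 10, against 0.0148% of all genes. A match is a description of letters, and no match says only that these letters are not in this window.

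Mfge8 rose in both CRE+ fractions of AMs. It was at 13.4, 10.6, 9.80, 11.5 and 13.2 CPM in CRE- AMs, at 37.0, 25.1, 29.0, 30.8 and 25.2 in CD11b- AMs and at 219, 102, 150, 188 and 158 in CD11b+ AMs. No 2 of these groups overlapped. It rose by 1.33 on the log2 scale in CD11b- AMs (SE 0.17, adjusted p = 7.66e-06) and by 3.79 in CD11b+ AMs (SE 0.18, adjusted p = 1.10e-12), a 13.9-fold change, and it was 2.46 higher in CD11b+ than in CD11b- AMs (SE 0.16, adjusted p = 1.06e-09). CD11b+ AMs thus had the highest mean Mfge8 of the 6 groups, 163 ± 43.8 CPM (SD, n = 5). Over the 15 AM samples, the 2 genes most like it were Lamp1 (Pearson r = 0.990) and Ccl6 (r = 0.989).

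Gas6 was at 0.101, 3.07, 1.64, 2.14 and 0.844 CPM in CD11b- AMs and at 10.4, 3.22, 6.25, 21.6 and 5.55 in CD11b+ AMs. All CD11b+ samples lay above all other AM samples, with replicate 4 highest in CD11b+ as in CRE- AMs. It rose by 3.91 in CD11b+ AMs (SE 0.84, adjusted p = 0.000780) and by 5.64 without replicate 4 of CRE- AMs. Summed, the 853 counts against 64 gave a ratio of 13.4 per counted read (95% exact interval of counting error 10.4 to 17.6). In CD11b- AMs the log2 fold change of 1.35 (SE 0.82) had an adjusted p of 0.255, but passed without replicate 4 of CRE- AMs (3.08, adjusted p = 0.0129). Between the fractions it was 2.56 higher in CD11b+ AMs (SE 0.77, adjusted p = 0.0136), a call lost without replicate 4 of CD11b+ AMs (2.004, adjusted p = 0.0673). The exons of Gas6 overlap those of Tmem255b on the opposite strand, which had at most 7 counts in any sample. The level in CD11b+ AMs, 9.39 ± 7.27 CPM, still lay under the 56.0 ± 8.88 CPM of CRE- KCs.

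Timd4 had 21, 30, 16, 85 and 34 counts in CD11b+ AMs, or 1.28, 1.53, 0.840, 4.51 and 1.99 CPM. CD11b- AMs had 4, 0, 6, 0 and 0 counts. The 186 counts of CD11b+ AMs against 1 in CRE- AMs gave a ratio of 187 per counted read (95% exact interval of counting error 33.2 to 7428), and the test had an adjusted p of 3.62e-05. As the gene was tested only because of its CD11b+ samples, its p-values are a description. The fitted fold change depends on the prior count and is not given. Between the fractions the adjusted p was 0.000745, and in CD11b- against CRE- AMs it was 0.135. The mean of 2.03 ± 1.45 CPM in CD11b+ AMs was in the range of Tim4- KCs, at 2.80 ± 3.27 CPM, and far under the 708 CPM of CRE- KCs.

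The third bridging molecule, Pros1, moved in the other direction. It was at 487, 459, 431, 485 and 458 CPM in CD11b- AMs and at 241, 299, 332, 330 and 313 in CD11b+ AMs, with no overlap between any of the 3 AM groups. It fell by 0.48 in CD11b- AMs (SE 0.08, adjusted p = 9.20e-05) and by 1.11 in CD11b+ AMs (SE 0.08, adjusted p = 3.74e-10), and was 0.63 lower in CD11b+ than in CD11b- AMs (adjusted p = 2.32e-06). All AM samples still lay above all KC samples.

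**Figure D4:**
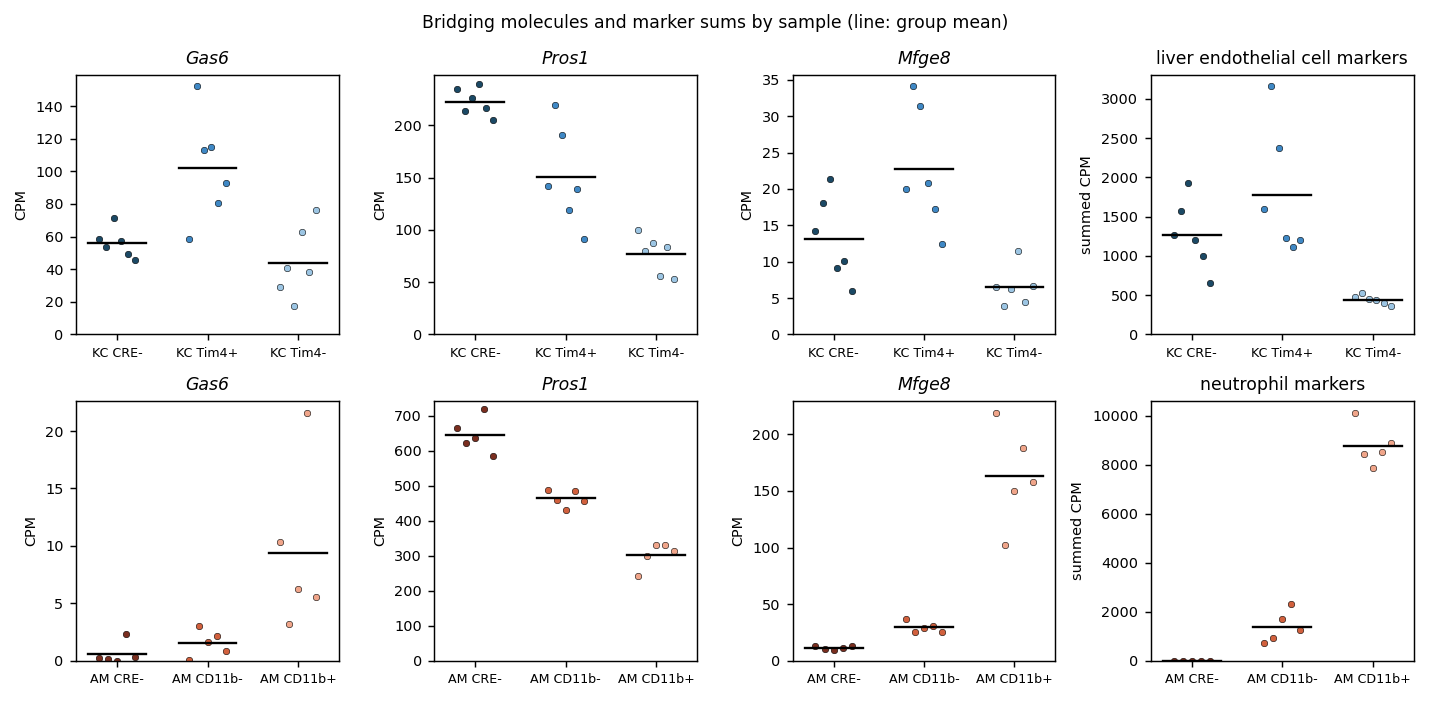
Levels (CPM, from 0) of Gas6, Pros1 and Mfge8 in each sample of KCs (top row) and AMs (bottom row), with the summed level of 9 liver endothelial cell markers in KCs and of 7 neutrophil markers in AMs in the last panels. Points are samples and lines are group means. In AMs, Mfge8 climbs from 11.7 to 163 CPM on average while Pros1 goes from 646 to 303 CPM, and in KCs all 3 genes and the endothelial markers are lower in Tim4- than in Tim4+ samples on average.

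Axl and Lrp1 fell in both CRE+ fractions of AMs. Axl was at 2775, 2734, 2788, 2896 and 2921 CPM in CRE- AMs, at 2092, 2245, 2031, 2032 and 2219 in CD11b- AMs and at 1745, 1881, 1988, 1684 and 1826 in CD11b+ AMs. The 3 groups did not overlap. It fell by 0.41 in CD11b- AMs (SE 0.05, adjusted p = 4.98e-06) and by 0.64 in CD11b+ AMs (SE 0.05, adjusted p = 2.27e-09), and was 0.23 lower in CD11b+ than in CD11b- AMs (adjusted p = 0.00115). Lrp1 was at 458, 549, 564, 551 and 546 CPM in CRE- AMs, and fell by 0.59 in CD11b- AMs (SE 0.08, adjusted p = 1.81e-05) and by 0.67 in CD11b+ AMs (SE 0.08, adjusted p = 9.91e-07). Its CD11b- and CD11b+ ranges, 332 to 378 and 276 to 397 CPM, overlapped (-0.08, adjusted p = 0.484).

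Mertk fell by 0.27 in CD11b- AMs (SE 0.08, adjusted p = 0.0255) and by 0.22 in CD11b+ AMs (SE 0.08, adjusted p = 0.0378), with ranges of 202 to 268 and 217 to 286 CPM that overlapped the CRE- range of 253 to 331. The first call was lost without any 1 of replicates 2 and 3 of CD11b- AMs or 4 and 5 of CRE- AMs (adjusted p from 0.0529 to 0.0851). The second was lost without any 1 of replicates 1, 2, 3 and 5 of CD11b+ AMs or 3, 4 and 5 of CRE- AMs (adjusted p from 0.0589 to 0.121). Havcr2 did not pass in CD11b- AMs (0.06, SE 0.11, adjusted p = 0.722) or CD11b+ AMs (0.07, SE 0.11, adjusted p = 0.647), and its 3 AM means lay between 82.9 and 87.7 CPM. Elmo1 did not pass in CD11b+ AMs (0.07, SE 0.07, adjusted p = 0.433) or in CD11b- AMs (0.17, SE 0.07, adjusted p = 0.0772), where it passed without replicate 3 of CD11b- AMs (0.22, adjusted p = 0.0199). Between the CRE+ fractions Mertk (0.04, adjusted p = 0.745), Havcr2 (0.0035, adjusted p = 0.985) and Elmo1 (-0.10, adjusted p = 0.285) did not pass.

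In AMs other lists moved as well. The summed level of 7 neutrophil markers was 6.80 to 9.80 CPM in CRE- AMs, 718 to 2302 in CD11b- AMs and 7852 to 10105 in CD11b+ AMs. S100a8, S100a9 and Cxcr2 had means of 4464, 3684 and 577 CPM in CD11b+ AMs. Ltf, Mmp9, Retnlg and Camp were less abundant, with 16.9, 14.7, 2.85 and 0.783 CPM there and at most 0.173 in CRE- AMs. All 6 neutrophil markers tested were higher in CD11b+ than in CRE- AMs and than in CD11b- AMs, beside 22.8% and 19.8% of all genes. Mmp9 and Retnlg had at most 6 counts in any other AM sample, so their calls are a description. The summed level of 9 lung epithelial markers had medians of 132, 546 and 1602 CPM in CRE-, CD11b- and CD11b+ AMs, led in CD11b+ AMs by Krt8, Epcam and Cdh1, while the surfactant gene Sftpc had means of 13.6, 18.9 and 23.6 CPM. Per the study, AMs that lost Zeb2 express EpCam themselves. The summed level of 7 monocyte markers had medians of 10.7, 19.99 and 259 CPM, led by Ly6c2. All 7 were higher in CD11b+ AMs than in either other AM group, beside the same shares. At least Cx3cr1 among them passed the filter only through the CD11b+ samples, so its call is a description. The 7 AM markers had a median sum of 28731, 27776 and 45112 CPM, most of it Chil3, and moved both ways. In CD11b+ AMs Chil3, Car4 and Itgax rose against CRE- AMs and Siglecf, Ear2, Krt79 and Fabp1 fell, with a median log2 fold change of -1.28 over the 7. Fabp1 went from 195 to 22.3 CPM and Siglecf from 533 to 221 CPM, whereas Chil3 went from 24411 to 42805 CPM. The sum of liver endothelial markers was at most 48.9 CPM in any AM sample. The part of other cells in the levels of Mfge8, Gas6 and Timd4 in CD11b+ AMs was not tested.

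Of each remaining list, at most 3 genes passed the test in any comparison within a tissue, though few were tested in some lists. In Tim4- against CRE- KCs, 3 of 5 macrophage markers were lower and 3 of 7 dendritic cell markers higher, beside 13.2% lower and 12.2% higher among all genes. In CD11b+ against CD11b- AMs, 3 of 3 B cell, 3 of 5 macrophage and 3 of 7 dendritic cell markers were higher, beside 19.8% of all genes. Medians per group in KCs ran from 2026 to 2650 CPM for hepatocyte, from 16.5 to 26.9 for stellate cell and fibroblast, from 92.5 to 123 for dendritic cell, from 39.0 to 85.6 for B cell, from 6.50 to 13.4 for T and NK cell and from 48.9 to 91.9 for platelet markers. In AMs they ran from 5.34 to 12.8 CPM for stellate cell and fibroblast, from 6.14 to 16.2 for dendritic cell, from 2.98 to 9.30 for B cell, from 4.75 to 5.76 for T and NK cell and from 2.23 to 14.6 for platelet markers. The hepatocyte list, which holds the iron carrier Trf, had medians of 3254 to 8253 CPM in AMs, where 5 or more of its 9 genes were at 3 counts or fewer in every sample of each group. The 5 general macrophage markers had medians of 14409 to 33976 CPM over the 6 groups.

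Tyro3, on chromosome 2 from 119797733 to 119818104, is the TAM receptor known from the nervous system. It had at most 24 counts in any sample and no count in all 10 CRE+ AM samples, which allows up to 3 counts per sample. In CRE- AMs it had 18, 5, 0, 0 and 0 counts, and it had none in 3 of 6 CRE- KC, 2 of 6 Tim4+ KC and 2 of 6 Tim4- KC samples. Within each tissue, a difference in this gene was not detectable at this depth.

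Whether the change with CRE differed between the tissues was tested as the mean log2 change of both CRE+ KC groups less that of both CRE+ AM groups, which also compares Clec4f-cre with Itgax-cre. Of 9 members tested, 4 passed: Mfge8 and Gas6 were lower and Havcr2 and Tyro3 higher by this measure, beside 9.52% lower and 10% higher among all 13294 genes tested. The difference was -2.69 for Mfge8 (SE 0.34, adjusted p = 2.64e-07), which changed in opposite directions in Tim4- KCs and in AMs. It was -2.38 for Gas6 (SE 0.71, adjusted p = 0.0150), or -4.12 without replicate 4 of CRE- AMs, and 1.60 for Havcr2 (SE 0.43, adjusted p = 0.00653), which rose in KCs and not in AMs by the tests above. For Tyro3 (adjusted p = 0.0442), both CRE+ AM groups are at 0, so the fitted difference depends on the prior count and is read as neither a fold nor a bound. Its call was lost without any 1 of 23 of the 33 samples (adjusted p from 0.0514 to 0.175), with limma-voom (adjusted p = 0.366), with DESeq2 (adjusted p = 0.121) and with the replicate block (adjusted p = 0.148). Pros1 (-0.27, adjusted p = 0.348), Lrp1 (0.19, adjusted p = 0.349), Axl (0.22, adjusted p = 0.132), Elmo1 (0.18, adjusted p = 0.327) and Mertk (0.00028, SE 0.13, unadjusted p = 0.998) did not pass. Pros1, Lrp1, Axl and Mertk were each lower in at least 1 CRE+ group of both tissues.

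The order of the 6 group means differed by gene. Pros1 was highest in CRE- AMs, followed by CD11b- AMs, CD11b+ AMs, CRE- KCs, Tim4+ KCs and Tim4- KCs, and the first 3 steps did not overlap. Havcr2 was highest in CD11b+ AMs, the 3 AM groups overlapped, and all lay above the KC groups. Lrp1 and Mertk were highest in CRE- KCs and had their lowest means in CD11b+ and CD11b- AMs, respectively. Axl was highest in CRE- AMs and lowest in CD11b+ AMs, and all neighbors in its order overlapped, as did those of Elmo1, which was highest in Tim4- KCs.

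The genes most alike in log2 CPM over the 18 KC samples were Colec12 for Timd4 (Pearson r = 0.960), Fkbp9 for Pros1 (r = 0.959), Cerk for Lrp1 (r = 0.922), P4ha1 for Axl (r = 0.901), Mfsd12 for Havcr2 (r = 0.898), Irf2bp2 for Elmo1 (r = 0.897), Shb for Mertk (r = 0.873) and Cmtm8 for Gas6 (r = 0.843). Over the 15 AM samples they were Ucp3 for Pros1 (r = 0.980), Sept9 for Axl (r = 0.975), Tmed10 for Timd4 (r = 0.950), Nfix for Lrp1 (r = 0.936), Sel1l for Mertk (r = 0.911), Hipk3 for Gas6 (r = 0.902), Pi4kb for Elmo1 (r = 0.850) and Poc1b for Havcr2 (r = 0.747). The samples share their group differences, so these values are a description.

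The rest of the pathway was read from 7 gene lists, and counts below are of genes past the same test. Over all genes tested, the shares to set beside them are 33.3% higher and 29.9% lower in CRE- KCs against CRE- AMs. Against CRE- cells they are 3.63% and 2.46% for the Tim4+ fraction, 12.2% and 13.2% for the Tim4- fraction and 22.8% and 20.5% for CD11b+ AMs. Among 18 tested of 22 other engulfment receptors, 10 were higher in CRE- KCs and 4 in CRE- AMs. Of these, 5 of the 10 and 2 of the 4 passed the filter only through the group where they were higher, so they had to differ. Stab1, Stab2 and Olr1, given next, are among them. Stab1 and Stab2, scavenger receptors that bind phosphatidylserine, were at 230.0 ± 50.3 and 330.0 ± 75.2 CPM in CRE- KCs and at most 0.0462 CPM in CRE- AMs. Olr1, a receptor for oxidized lipoprotein, was at 474 ± 54.0 CPM in CRE- AMs and 0.131 ± 0.230 in CRE- KCs. In Tim4+ KCs 6 of 16 rose and 2 fell, among them Trem2, a lipid-sensing receptor, from 33.7 ± 11.4 to 124 ± 53.2 CPM (log2 fold change 1.86, SE 0.39, adjusted p = 0.00470). In Tim4- KCs 4 of 16 rose and 5 fell, with Stab2, which is also in the endothelial list, at 86.0 ± 20.1 CPM. In CD11b+ AMs 9 of 16 rose and 3 fell, among them Itgam, which encodes CD11b and defines that sort, and Stab1, at 14.3 ± 6.83 CPM, which passed the filter only through the CD11b+ samples.

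Of the other bridging molecules and opsonins, 12 of 15 were tested between the tissues, with 7 higher and 5 lower in CRE- KCs. All 7 passed the filter only through the CRE- KC samples. C1qa and C1qb, subunits of the complement component that coats dying cells, were at 4787 ± 288 and 6161 ± 388 CPM in CRE- KCs and at 0.465 ± 0.472 and 0.631 ± 0.316 in CRE- AMs. Anxa1, which binds phosphatidylserine, was at 749.9 ± 33.1 CPM in CRE- AMs and 3.69 ± 0.875 in CRE- KCs. In CD11b+ AMs 8 of 9 rose and 1 fell, beside 22.8% and 20.5% of all genes, and 2 of the 8 (C1qa and Thbs1) passed the filter only through the CD11b+ samples. The list's median log2 fold change was 2.39 beside -0.01 for all genes. C1qa was at 51.0 ± 28.2 CPM there (log2 fold change 6.76, SE 0.73, adjusted p = 2.68e-07), and Fn1, the fibronectin gene, went from 787 to 328 CPM (log2 fold change -1.28, SE 0.20, adjusted p = 2.75e-05). As C1qa was tested only because of its CD11b+ samples, its p-value is a description. In Tim4- KCs 2 of 12 rose and 5 fell, of which Edil3 passed the filter only through the CRE- KC samples.

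In the engulfment signalling list, to which Elmo1 would belong, 10 of 18 were higher in CRE- KCs and 5 in CRE- AMs. Of the 10, 2 (Ptk2 and Bcar1) passed the filter only through the CRE- KC samples. In Tim4- KCs 4 of 18 rose and 5 fell, the latter with Ptk2, the focal adhesion kinase gene, from 53.9 to 21.7 CPM (log2 fold change -1.32, SE 0.19, adjusted p = 3.76e-05). In CD11b+ AMs 5 of 17 rose and 5 fell, and Rac2, a Rac GTPase of blood cells, went from 255 to 83.7 CPM (log2 fold change -1.62, SE 0.12, adjusted p = 5.89e-10).

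Of the 11 find-me and do-not-eat-me receptors, 4 rose and 3 fell in Tim4- KCs. The fractalkine receptor gene Cx3cr1, which is also in the monocyte list, went from 5.83 ± 2.28 to 163 ± 140 CPM (log2 fold change 4.79, SE 0.69, adjusted p = 3.00e-05). Its Tim4- samples ran from 54.4 to 351 CPM. Cd22 went from 67.1 to 19.8 CPM (log2 fold change -1.78, SE 0.23, adjusted p = 6.93e-06). In CD11b+ AMs 5 rose and 3 fell, and P2ry2, a receptor for the nucleotides that dying cells release, went from 81.5 to 5.41 CPM (log2 fold change -3.93, SE 0.16, adjusted p = 2.13e-13). Of the 5, Cx3cr1 passed the filter only through the CD11b+ samples. Of 19 genes for digestion of the engulfed corpse, none rose and 6 fell in Tim4- KCs, with a median log2 fold change of -0.16, and 9 rose and 4 fell in CD11b+ AMs. Among 12 transcription factors known to act on efferocytosis genes, 1 rose and 3 fell in Tim4- KCs, where Pparg rose by 1.17 (SE 0.22, adjusted p = 0.000441). In CD11b+ AMs 5 of 11 rose and 2 fell. Of the sheddases that cleave TAM receptors and the inhibitors these receptors induce, 1 of 5 rose and 1 fell in Tim4- KCs, and 3 of 4 rose in CD11b+ AMs, with Socs1 at 11.8 CPM against 2.50.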

How the data were processed

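Bulk RNA-seq was run on 33 samples. The authors deposited, per sample, read counts per gene from HTSeq-count, made from reads checked with FastQC 0.11.4, trimmed below quality 20 and dropped under 35 bases with Trimmomatic 0.35, and mapped to mm10 with TopHat2 2.1.0 (with SAMtools 0.1.18). The versions of HTSeq-count and of its annotation, and the strand setting, are not given in the sources used here. The 5 tally rows of each file, 5.881% to 10.101% of its reads, were left out. Counts were tested with edgeR 4.0.16 (filterByExpr, TMM factors, quasi-likelihood test, Benjamini-Hochberg over all genes tested), in R 4.3.3. The 11 CRE- samples, the 18 KC samples, the 15 AM samples and all 33 samples each had a fit. CPM were scaled by TMM factors over all samples and divided by union exon length (GENCODE M21, GRCm38) where levels were compared between genes. Python 3.11.15, pandas 2.3.3 and scipy 1.17.1 were used for descriptions. The fits were tested on simulated data.

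Groups were taken from the source names. All 10 genes are named. Of each pathway list, at most the 2 largest increases and decreases per comparison were named, among genes past the test, without overlap, whose higher group averaged 3 log2 CPM or more. The values of 1 listed gene are not reported here. The members and lists were chosen with earlier results of these data known. Alternatives were limma-voom (limma 3.58.1), DESeq2 1.42.0, other scaling and filters, a 2-fold rule, fits of the 2 groups alone, KC replicates 1 to 4 alone, the replicate block, and leaving out each sample. Between Tim4- and Tim4+ KCs, samples with the same replicate number deviated together from their group means in all 6 pairs (r = 0.112 to 0.391). Between CD11b+ and CD11b- AMs r was 0.0742 to 0.197, and over 0.1 in 4 of 5 pairs. In the other comparisons the lowest r was 0.00375 or less, but between Tim4- and CRE- KCs it reached 0.236 and was over 0.1 in 4 of 6 pairs. The main tests did not use replicate numbers. Replicates differed beyond counting noise. Intervals of counts cover counting error only.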

Additional observations from a re-analysis of the deposited data

Results flagged for a closer look

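In 5 of 58 groups of sample values of these genes, a single sample lay far from the rest, where chance gives about 1 in 20. Timd4 was at 0.0481 CPM in replicate 4 of CRE- AMs and at 0 in the others. Gas6 was at 2.36 CPM in the same sample, with the others from 0 to 0.358. Mfge8 was at 11.5 CPM in replicate 4 of Tim4- KCs, with the others from 3.90 to 6.64. Lrp1 was at 458 CPM in replicate 1 of CRE- AMs, with the others from 546 to 564. Elmo1 was at 152 CPM in replicate 1 of Tim4+ KCs, with the others from 112 to 123.

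The change with CRE differed between KCs and AMs, by the test of the difference itself, for Mfge8 and Havcr2, for Gas6 (though not with limma-voom, adjusted p = 0.124), and for Tyro3 with edgeR but neither limma-voom nor DESeq2. The change in KCs less that in AMs was -2.69 on the log2 scale for Mfge8, -2.38 for Gas6 and 1.60 for Havcr2. The fitted 5.76 of Tyro3 depends on the prior count, since all CRE+ AM samples had no count, and is neither a fold nor a bound. Its adjusted p of 0.0442 by edgeR's quasi-likelihood test became 0.366 with limma-voom, 0.121 with DESeq2 and 0.148 with the replicate block, and the call was lost without any 1 of 23 of the 33 samples.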

How the results depend on the processing

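Over the alternatives other than the 2-fold rule, 1752 of 1855 values of single genes kept their direction and their side of the threshold, 93 lost and 10 gained the call, and 0 reversed. The number of members past the test in Tim4+ against CRE- KCs went from 2 to 1 with limma-voom, 1 with RLE factors, 1 with the 2-fold rule and 0 with KC replicates 1 to 4. Between the CRE- tissues 6 members became 4 with the 2-fold rule and 4 with at least 10 counts in every sample. The 2-fold rule gave 3 in place of 7 in Tim4- against CRE- KCs, 2 in place of 4 in Tim4- against Tim4+ KCs, 1 in place of 5 in CD11b- AMs, 4 in place of 7 in CD11b+ AMs and 3 in place of 5 between the CRE+ AM fractions. The same minimum gave 3 between those fractions and 2 in place of 4 for the difference between tissues, since fewer genes were tested, and limma-voom gave 2 for the latter. The cause of the other shifts was not tested. Leaving out 1 sample at a time gave 6 to 6 members between the tissues, 0 to 3 in Tim4+ KCs, 5 to 7 in Tim4- KCs, 3 to 4 between the KC fractions, 4 to 5 in CD11b- AMs, 6 to 7 in CD11b+ AMs, 4 to 5 between the AM fractions and 3 to 4 for the difference between tissues.

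With the replicate block, Axl passed in Tim4+ against CRE- KCs (-0.23, adjusted p = 0.0107), between the KC fractions (-0.19, adjusted p = 0.0261, 5 members in place of 4) and for the difference between tissues (0.21, adjusted p = 0.0172), and Tyro3 lost that difference (adjusted p = 0.148). The block changed no other call. By another tool or fit, Mfge8 in Tim4- KCs was lost with limma-voom (adjusted p = 0.0526), Mertk there with no filter (0.0533) and with the 2 groups alone (0.0773), Lrp1 between the KC fractions with the 2 groups alone (0.0830), the Gas6 difference between tissues with limma-voom (0.124), and that of Tyro3 with limma-voom (0.366) and DESeq2 (0.121). Havcr2 in Tim4+ KCs was lost with limma-voom (0.151) and Pros1 there with RLE factors (0.0520), while Gas6 there was gained with DESeq2 (0.0422) and with the 2 groups alone (0.00836). DESeq2 gave no adjusted p for Gas6 between the tissues. Depth limits Tyro3, and Timd4 and Gas6 in AMs.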
